A study of Mus musculus with 8 samples.

Results

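The tropomyosin genes of the mouse, Tpm1, Tpm2, Tpm3 and Tpm4, were followed in C2C12 cells, a mouse myoblast line, transfected with a control siRNA (siNC, 4 libraries) or with an siRNA against Fam129b (siFam129b, 4 libraries). The 4 genes were taken by symbol from a table of 21879 genes, and all 4 were well above the filter of a mean of 1 FPKM (fragments scaled to gene length and to library size) that left 11025 genes for testing. Every sample carries the same treatment label, muscle differentiation, and the stated interest was the part of Fam129b in muscle atrophy. The labels do not name separate cultures, and p-values therefore cover only the spread between samples of a group, part or all of which may be technical. No tropomyosin gene was called beyond that spread, and the largest departures from the siNC levels sat in 1 library, siFam129b library 4. With all libraries the test adjusted over the 11025 genes did not call Fam129b either. Its unadjusted p in limma was 0.000198, and all siFam129b libraries lay below the siNC range of Fam129b.

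Tropomyosins are coiled-coil proteins that lie end to end along actin filaments and influence which other proteins bind there. In the sarcomere, long tropomyosins and the troponin complex block myosin from actin until calcium is released; in other cells and in dividing myoblasts, long and short forms mark stress fibres and other filaments of the cytoskeleton. Tpm1 encodes alpha-tropomyosin, the main form of fast muscle fibres and heart. Tpm2 encodes beta-tropomyosin, Tpm3 the form of slow fibres together with short cytoskeletal forms, and Tpm4 a form of the cytoskeleton.

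The libraries held between 31466869 and 36031688 whole reads, recovered from the FPKM values as lower bounds. Fam129b, the targeted gene, averaged 168 ± 11.6 FPKM with siNC and 98.5 ± 19.9 FPKM in its own knockdown (SD, n = 4), and no siFam129b library reached the siNC range; library 4 kept most, at 128 FPKM. Among the 7 markers of myotubes, Myh3, embryonic myosin, and Ckm, muscle creatine kinase, averaged under 1 FPKM. No library exceeded 2.55 FPKM of Myh3 or 0.984 FPKM of Ckm. The other members averaged at least 1 FPKM, with Myog at 4.21 to 14.3 FPKM and Acta1 at 3.18 to 10.5 FPKM with siNC. With siFam129b, Myog and Acta1 reached at most 6.8 and 5.19 FPKM. The 7 genes summed to 18.5 to 51.2 FPKM with siNC and 12.3 to 27.7 FPKM with siFam129b. No sample is labelled as undifferentiated, so how far the cells had differentiated cannot be judged from these levels. The 5 markers of dividing myoblasts summed to 490 to 542 FPKM with siNC and 450 to 510 FPKM with siFam129b. Pcna (185 to 250 FPKM over both groups) and Top2a (132 to 165 FPKM) gave the largest parts. Myf5 stood at 11.1 to 16.7 FPKM with siNC and 4.50 to 12.1 FPKM with siFam129b, and Myod1 at 26.9 to 38.1 and 30.4 to 41.3 FPKM. Of other cell types, osteoblast markers summed to at most 0.737 FPKM, with Ibsp at 0 in every library, and adipocyte markers to between 8.6 and 16.0 FPKM, with 3 of 4 under a mean of 1 FPKM. The 5 smooth muscle markers summed to 188 to 197 FPKM with siNC and 188 to 259 FPKM with siFam129b, the highest in library 4. Acta2 stood at 136 to 188 FPKM and Smtn at 40.0 to 61.7 FPKM over both groups. Myh11, the defining myosin of smooth muscle, was at most 0.0308 FPKM. In such bulk samples, fewer cells of a type and less RNA per cell cannot be told apart.

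Each tropomyosin row sums all transcripts of its gene, so long and short forms cannot be separated. In the GENCODE M21 annotation of GRCm38, a later build than the mm9 of the submitters' notes, Tpm1 lies on chromosome 9 (67022590 to 67049406, minus strand) and has 16 complete coding transcripts. Of these, 10 begin at the first start region and encode 281 to 326 residues, and 6 begin 5.44 kb further on and encode 245 to 251. Tpm3, on chromosome 3 (90072649 to 90100902, plus strand), has the same arrangement, with 2 transcripts of 284 and 285 residues from the first start and 3 of 247 or 248 residues from a start 6.89 kb downstream. Tpm2, on chromosome 4 (43514711 to 43523765, minus strand), has 3 complete coding transcripts, each of 284 residues. Tpm4, on chromosome 8 (72134975 to 72153142, plus strand), has 1, of 248 residues. In this annotation Tpm2 is therefore a gene of long tropomyosin, Tpm4 of short tropomyosin, and Tpm1 and Tpm3 of both. Tpm3 also has annotated copies elsewhere, Tpm3-rs2 (a processed pseudogene) and Tpm3-rs7; neither has a row among those used here, and how reads shared with them were counted is not given in the sources used here, so the level of Tpm3 is uncertain to that extent.

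The start regions of Tpm3 are shown because 1 FPKM value covers both. Those of Tpm1 and Tpm4 are shown because siFam129b library 4, described further on, was the highest of the 8 for Tpm1 and the lowest for Tpm4. That library was also the highest for Tpm3 and for Tpm2, whose shift was larger than that of Tpm1 (0.67 against 0.37 on the log2 scale). The Tpm2 window is counted below but not printed. Each window is from RefSeq (GRCm38.p6), 5′ to 3′, and runs from 250 bases before the RefSeq start to 50 after it. RefSeq and GENCODE place some starts differently. By the GENCODE spans above, the whole Tpm4 window and most of the Tpm1 and Tpm2 windows lie inside the gene, so bases before the RefSeq start may be transcribed. Capitals mark E-boxes (CANNTG, the motif bound by MyoD and other basic helix-loop-helix factors) and the MCAT motif (CATTCC on either strand, bound by Tead factors). The lines give Tpm1 (chr9:67049164-67049463, minus strand, the start of the long forms), Tpm3 long (chr3:90072401-90072700, plus strand), Tpm3 short (chr3:90079271-90079570, plus strand) and Tpm4 (chr8:72135038-72135337, plus strand).
Tpm1: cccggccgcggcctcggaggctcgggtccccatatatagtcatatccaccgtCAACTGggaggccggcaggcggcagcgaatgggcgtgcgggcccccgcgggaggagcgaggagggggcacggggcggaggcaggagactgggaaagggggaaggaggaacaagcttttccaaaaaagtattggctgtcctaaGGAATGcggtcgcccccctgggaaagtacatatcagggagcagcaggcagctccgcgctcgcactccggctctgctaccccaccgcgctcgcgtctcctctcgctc
Tpm3 long: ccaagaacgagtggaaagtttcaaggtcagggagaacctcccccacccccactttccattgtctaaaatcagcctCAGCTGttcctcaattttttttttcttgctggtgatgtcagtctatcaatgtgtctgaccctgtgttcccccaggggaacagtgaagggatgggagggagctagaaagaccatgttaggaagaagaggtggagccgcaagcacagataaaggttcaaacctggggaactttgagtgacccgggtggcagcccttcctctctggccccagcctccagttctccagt
Tpm3 short: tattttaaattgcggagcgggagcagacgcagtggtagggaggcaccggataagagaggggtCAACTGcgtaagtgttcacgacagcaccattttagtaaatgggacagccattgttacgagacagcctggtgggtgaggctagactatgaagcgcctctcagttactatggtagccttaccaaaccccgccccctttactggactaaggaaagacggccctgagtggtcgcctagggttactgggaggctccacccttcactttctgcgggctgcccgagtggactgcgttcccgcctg
Tpm4: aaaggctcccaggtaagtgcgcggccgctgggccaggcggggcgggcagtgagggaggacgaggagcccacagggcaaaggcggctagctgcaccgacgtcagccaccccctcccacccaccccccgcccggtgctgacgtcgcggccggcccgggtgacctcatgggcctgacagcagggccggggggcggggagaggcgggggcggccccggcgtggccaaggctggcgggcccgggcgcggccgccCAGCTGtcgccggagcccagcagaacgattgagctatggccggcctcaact
The second start region of Tpm1, that of its short forms, has no window here. All 5 tropomyosin windows, the window of Tpm2 included, held exactly 1 E-box, and 72.3% of the 32851 windows of the same length in the table hold at least 1. The MCAT motif was found in Tpm1 alone of the 5, against 14.7% of all windows. Neither a CArG box, the motif of serum response factor, nor a MEF2 site was found in any of the 5 windows, which 1.63% and 3.19% of all windows hold. Sites that depart from the searched motifs were not counted, so the absence of related sites is not shown. The GC box (GGGCGG on either strand, in 35.7% of all windows, not in capitals) was found 5 times in Tpm4, where 1 match shares 1 base with the E-box, 3 times in Tpm2, and 1 time each in Tpm1 and the short window of Tpm3. A match of letters is a description of the window and no evidence of binding.

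Tpm4 was the most abundant tropomyosin gene in every library. The 4 siNC libraries held 583, 587, 562 and 559 FPKM of Tpm4, and siFam129b libraries 1 to 4 held 566, 584, 558 and 461 FPKM. Libraries 1 to 3 of siFam129b thus lay within or at the edge of the siNC range, and library 4 lay below all others. By siNC mean Tpm4 ranked 60 among the 11025 tested genes. Tpm1 followed, at 295, 292, 306 and 323 FPKM with siNC and 296, 306, 325 and 399 FPKM with siFam129b. Here library 4 was the highest of the 8. Tpm3 stood at 255, 249, 258 and 273 FPKM with siNC and at 260, 273, 276 and 298 FPKM with siFam129b. The groups overlapped, with siFam129b library 4 again at the top. Tpm2, the beta gene, was the lowest, at 79.2, 78.2, 72.6 and 69.5 FPKM with siNC and 76.6, 79.7, 70.8 and 121 FPKM with siFam129b. Only library 4 of siFam129b was far from the other 7. Counting error was small at these levels: a library held at least 5307 recovered reads of Tpm2 and at least 31455 of Tpm4.

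**Figure D1:**
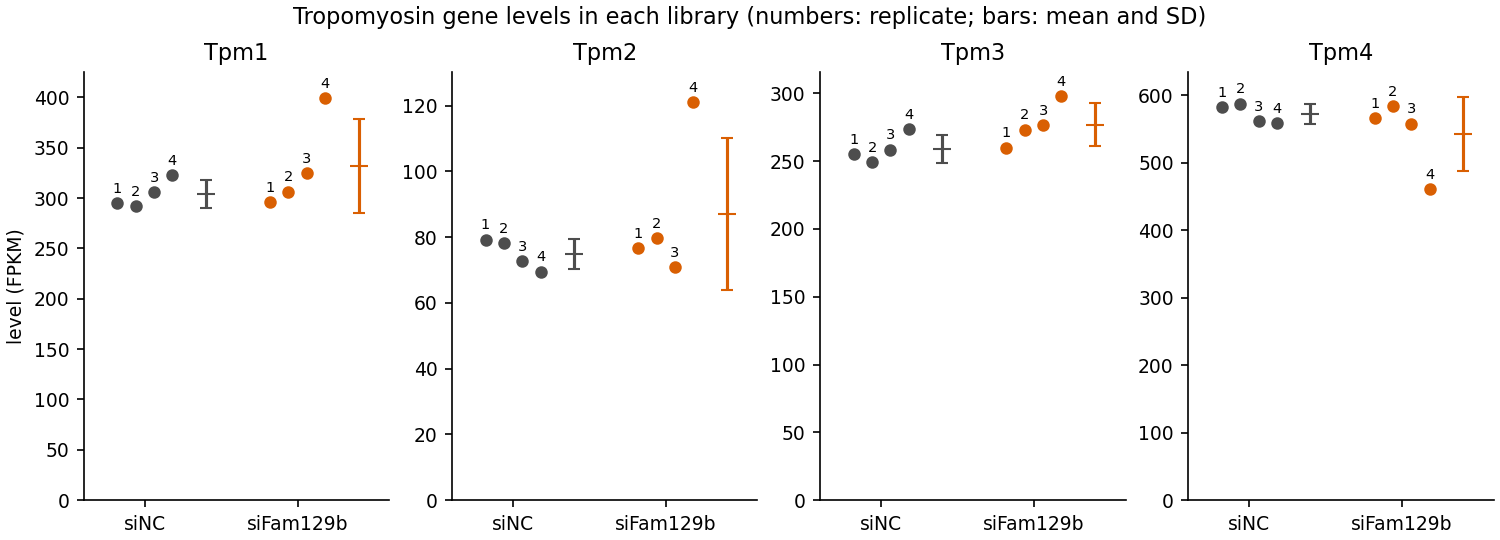
Level in FPKM (vertical axes, each starting at 0) of the 4 tropomyosin genes in each siNC and siFam129b library; points carry the replicate number, and bars give the mean and SD of the 4 libraries of a group. siFam129b library 4 is highest for Tpm1 (399 FPKM), Tpm2 (121 FPKM) and Tpm3 (298 FPKM) and lowest for Tpm4 (461 FPKM).

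The order Tpm4, Tpm1, Tpm3, Tpm2 held in all 8 libraries, on the FPKM scale, which is per length. Tpm4 exceeded Tpm1 by 1.73 to 2.01 times with siNC and by 1.16 to 1.91 times with siFam129b, the lowest ratio being that of library 4. Tpm1 and Tpm3 were the closest neighbours in 7 libraries, at a ratio of 1.12 to 1.18; in siFam129b library 4 their ratio was 1.34, and Tpm4 and Tpm1 were closer. The ranges of Tpm1 and Tpm3 did not overlap with siNC. With siFam129b they did (296 to 399 and 260 to 298 FPKM), through the Tpm3 value of library 4 alone; in libraries 1 to 3 Tpm1 (296 to 325 FPKM) was clear of Tpm3 (260 to 276 FPKM). Tpm3 exceeded Tpm2 by 2.46 to 3.93 times.

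Between siFam129b and siNC, none of the 4 genes passed an adjusted p of 0.05 in limma with Benjamini-Hochberg adjustment over all tested genes. The background was equally empty: 0 genes, 0% of those tested, were called, with 274 genes or 2.49% at an unadjusted p under 0.05, and limma voom fitted to the recovered reads called 0 as well. Tpm1 averaged 332 ± 46.5 FPKM after siFam129b and 304 ± 14.0 FPKM after siNC (SD, n = 4), a log2 difference of 0.12 ± 0.11 (SE; adjusted p = 0.784). Tpm2 averaged 87.0 ± 23.0 and 74.9 ± 4.62 FPKM (SD, n = 4), a log2 difference of 0.18 ± 0.16 (SE; adjusted p = 0.784). Tpm3 averaged 277 ± 15.8 and 259 ± 10.4 FPKM (SD, n = 4), a log2 difference of 0.10 ± 0.08 (SE; adjusted p = 0.784). Tpm4 averaged 542 ± 55.0 and 573 ± 14.6 FPKM (SD, n = 4), a log2 difference of -0.08 ± 0.10 (SE; adjusted p = 0.791). For no member were the groups free of overlap, against 3.37% of tested genes.

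A p above the threshold does not show equal levels, so the intervals matter. As a fold of siFam129b over siNC on the FPKM + 1 scale, the 95% interval ran from 0.918 to 1.28 for Tpm1, from 0.889 to 1.45 for Tpm2, from 0.943 to 1.21 for Tpm3 and from 0.812 to 1.10 for Tpm4. Without siFam129b library 4 the intervals narrowed to 0.937 to 1.11, 0.913 to 1.12, 0.967 to 1.12 and 0.933 to 1.06. The log2 differences were then 0.03 ± 0.05 for Tpm1, 0.02 ± 0.06 for Tpm2, 0.06 ± 0.05 for Tpm3 and -0.01 ± 0.04 for Tpm4 (SE, adjusted p from 0.87 to 0.966). In that fit 1 gene, or 0.00907% of those tested, was called, and it was Fam129b. No member had an unadjusted p under 0.05 there, against 4.31% of tested genes, and none of the 4 had siFam129b libraries 1 to 3 clear of the siNC range, against 5.83%. Means of siFam129b libraries 1 to 3 came to 102% of the siNC mean for Tpm1, 101% for Tpm2, 104% for Tpm3 and 99.4% for Tpm4, while Fam129b stood at 52.8%.

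**Figure D2:**
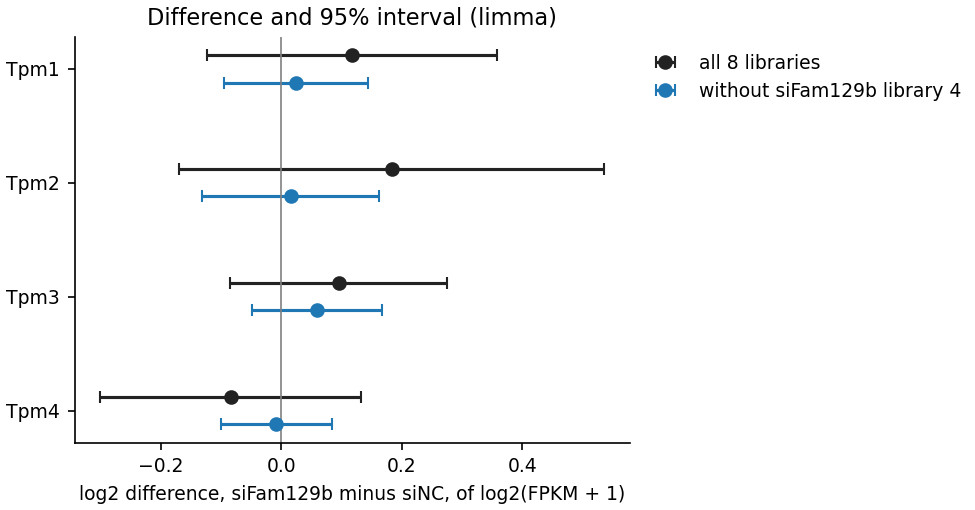
Difference of siFam129b minus siNC in log2(FPKM + 1) (horizontal axis) for each tropomyosin gene, with its 95% interval from limma, over all 8 libraries (black) and without siFam129b library 4 (blue). Every interval covers 0, and the widest is that of Tpm2 with all libraries, from -0.17 to 0.54.

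Summed over the 4 genes, tropomyosin came to 1210 ± 10.9 FPKM (SD, n = 4) after siNC and 1238 ± 33.5 FPKM (SD, n = 4) after siFam129b, or 0.306% and 0.299% of all FPKM. The direction of the sum turned with the scaling: set to equal FPKM totals, it was 1213 after siFam129b and 1241 after siNC. The FPKM total of siFam129b library 4 was 470385, against 391336 to 398292 in the other 7, and tropomyosin was 0.272% of it, against 0.302 to 0.312%. Tpm4 gave 48.1, 48.7, 46.9 and 45.6% of the sum in siNC libraries 1 to 4 and 47.2, 47.0, 45.4 and 36.1% in siFam129b. Tpm1 gave 24.2 to 26.4% with siNC and 31.2% in siFam129b library 4. Tpm2 gave 5.68 to 6.54% with siNC and 9.46% in that library, and Tpm3 20.6 to 22.3% and 23.3%. In siFam129b libraries 1 to 3 the shares of Tpm1, Tpm2 and Tpm4 averaged 25.3, 6.19 and 46.5%, against 25.1, 6.19 and 47.3% with siNC. These shares are scores over the members and were not tested.

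**Figure D3:**
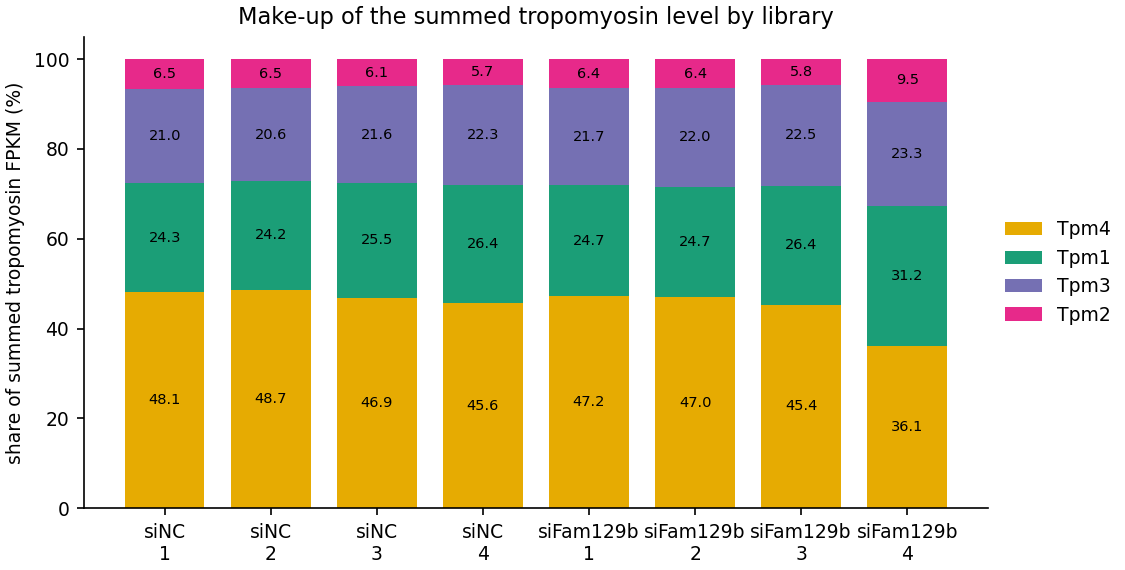
Share in percent (vertical axis) of each tropomyosin gene in the summed tropomyosin FPKM of each library. In 7 libraries Tpm4 makes up 45.4 to 48.7% and in siFam129b library 4 it makes up 36.1%, with larger shares of Tpm1 and Tpm2.

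Smaller shifts ran with replicate number. In siNC, Tpm1 averaged 293 FPKM in replicates 1 and 2 and 314 FPKM in replicates 3 and 4, and Tpm3 252 and 266 FPKM. Tpm2 averaged 78.7 and 71.1 FPKM, and Tpm4 585 and 560 FPKM, so Tpm2 and Tpm4 were lower where Tpm1 and Tpm3 were higher. With siFam129b, Tpm1 averaged 301 and 362 FPKM, Tpm3 266 and 287 FPKM and Tpm4 575 and 509 FPKM, the same directions, while Tpm2 averaged 78.1 and 95.9 FPKM, the opposite one. Library 4 set that difference: library 3 alone was above libraries 1 and 2 for Tpm1 and Tpm3 and below both for Tpm2 and Tpm4. Markers of culture state differed along the same line. Acta1, skeletal actin, averaged 10.4 FPKM in siNC replicates 1 and 2 and 3.88 FPKM in 3 and 4; Myog averaged 14.1 and 5.86 FPKM, and the proliferation marker Mki67 75.2 and 86.3 FPKM. The part of culture state in the tropomyosin values was not tested, and the labels name no batch.

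Taken as 8 exchangeable libraries, 3 of the 6 pairs of tropomyosin genes were correlated after adjustment over the 6 pairs (exact two-sided permutation test on log2(FPKM + 1)). Because replicates 1 and 2 stood apart from 3 and 4, each pair was also centred on the means of these sets and permuted within them. Then 1 pair, Tpm1 and Tpm3, passed. The siRNA groups were pooled within each set and not centred. Tpm1 and Tpm3 both averaged higher with siFam129b than with siNC in each set, so a difference between groups enters this r. Libraries of the same group and set may not be independent, so its p may be too small. The share of other gene pairs that would pass was not computed, so these counts cannot be read as particular to the tropomyosin genes. Tpm1 and Tpm3 varied together (Pearson r = 0.92, permutation p = 0.000223, adjusted p = 0.00134; Spearman rho = 0.98, permutation p = 0.000397, adjusted p = 0.00238). Within the sets r was 0.88 (exact permutation p = 0.00174, the smallest that 576 arrangements can give, adjusted p = 0.0104), and without siFam129b library 4 as well it was 0.96 (p = 0.00694, the smallest that 144 can give, adjusted p = 0.0417). Without the 2 libraries farthest from the median of Tpm1 the r was 0.84. Tpm1 and Tpm4 were inversely related (r = -0.96, permutation p = 0.00332, adjusted p = 0.00997; rho = -0.86, permutation p = 0.0107, adjusted p = 0.0308), with r = -0.65 without those 2 libraries. Within the sets r was -0.95 but did not pass (exact permutation p = 0.0677, adjusted p = 0.135), and without siFam129b library 4 it was -0.13 there (p = 0.743, adjusted p = 0.75). For Tpm3 and Tpm4 (r = -0.83, permutation p = 0.0119, adjusted p = 0.0238; rho = -0.83, permutation p = 0.0154, adjusted p = 0.0308) the r was -0.31 without the 2 libraries farthest from the median of Tpm3, and -0.54, with a rho of -0.75, without siFam129b library 4. Within the sets it was -0.74 (exact permutation p = 0.0677, adjusted p = 0.135), and -0.24 without that library (p = 0.632, adjusted p = 0.75).

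The pairs with Tpm2 did not pass. Its r was 0.78 with Tpm1, 0.62 with Tpm3 and -0.85 with Tpm4 (exact permutation p = 0.122, 0.126 and 0.125, each adjusted to 0.126), while the rho values were -0.05, -0.02 and 0.24 (permutation p = 0.935, 0.977 and 0.582; adjusted p = 0.977, 0.977 and 0.873). Without siFam129b library 4 the 3 coefficients turned, to -0.83, -0.53 and 0.92 over 7 libraries, so their sign was set by that library. Within the sets none of the 3 passed with all libraries (adjusted p from 0.2 to 0.229) or without library 4 (from 0.292 to 0.75).

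siFam129b library 4 stood apart over the whole table, and the tropomyosin genes can be placed within its shift. Against the mean of libraries 1 to 3, it was higher by 0.37 on the log2 scale for Tpm1, by 0.67 for Tpm2 and by 0.14 for Tpm3, and its value for Tpm4 was -0.30; none of these was tested. Of the tested genes, 7.66% were further up than Tpm2 and 31.4% further down than Tpm4. The shift followed gene length, as implied by reads and FPKM: the median was 0.55 for the 667 genes of 0.5 to 1 kb and -0.67 for the 1146 genes above 6 kb. The 4 tropomyosin rows have implied lengths of 1.72 kb (Tpm1), 2.20 kb (Tpm2), 2.07 kb (Tpm3) and 2.08 kb (Tpm4). Among the 2764 tested genes of 1.5 to 2.5 kb the median shift was 0.23, with the middle 50% between -0.08 and 0.48. Tpm2 lay above and Tpm4 below that middle range, and Tpm1 and Tpm3 within it. After length trends were removed, the shifts of library 4 were 0.09 for Tpm1, 0.52 for Tpm2, -0.04 for Tpm3 and -0.48 for Tpm4. The cause of the shift was not tested.

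**Figure D4:**
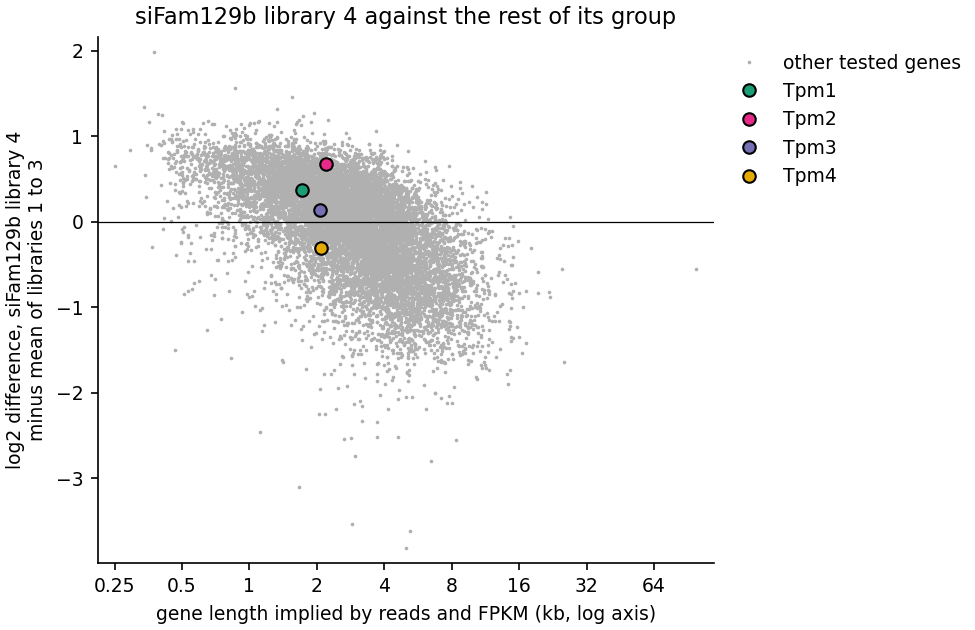
Difference of siFam129b library 4 from the mean of libraries 1 to 3 of its group in log2(FPKM + 1) (vertical axis) against implied gene length in kb (horizontal axis, log scale), 1 point per tested gene with a length. Long genes lie lower, and among genes of their length Tpm2 (0.67) is towards the top and Tpm4 (-0.30) towards the bottom of the cloud.

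The genes most like each tropomyosin gene, by Pearson r of log2(FPKM + 1) over the 8 libraries among all tested genes, shared that pattern of library 4. Library 4 was among the libraries used to choose them, so the shared pattern follows from the choice. For Tpm1 they were Rhno1, Sub1 and Arfip2 (r of 0.997, 0.996 and 0.995), for Tpm2 Psmb10, Pold4 and Wbp2 (0.991, 0.991 and 0.99). For Tpm3 they were Rxra, Palm3 and B4galt7 (0.971, 0.97 and 0.951), and for Tpm4 Epm2aip1, Zfp704 and Morf4l1 (0.996, 0.996 and 0.995). All 12 were the highest of many coefficients, so their size says little. Palm3 averaged 0.991 FPKM with siNC, and it passed the filter of 1 FPKM only through siFam129b (1.42 FPKM in libraries 1 to 3, 2.90 FPKM in library 4). Morf4l1, for example, stood at 98.8 FPKM on average with siNC and at 43.7 FPKM in siFam129b library 4, and Pold4 at 67.2 and 111 FPKM. Without that library the 12 coefficients were between 0.885 and 0.984.

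Partners of tropomyosin were read from 4 lists. With all 8 libraries none of their members was called in either direction (0% of tested genes were). Of 15 sarcomeric thin filament partners 10 were tested, and 9 lay below 0 and 1 above, with a median log2 difference of -0.44, against 0.00 over all genes tested. Tmod1, which caps the slow-growing end of actin filaments and binds tropomyosin, averaged 0.765 ± 0.237 FPKM in siFam129b libraries and 1.48 ± 0.721 FPKM in siNC libraries (SD, n = 4). It passed the filter of a mean of 1 FPKM only through its siNC values, so its place among the 9 below 0 is no separate support. Acta1 stood at 3.66 ± 1.72 and 7.16 ± 3.83 FPKM (SD, n = 4). It held 10.5, 10.4, 4.58 and 3.18 FPKM in siNC libraries 1 to 4 and 5.10, 5.19, 2.00 and 2.34 FPKM in siFam129b, lower with siFam129b both within replicates 1 and 2 and within 3 and 4. It was called, at a log2 difference of -0.81 (limma adjusted p = 0.0142), when library 4 of siFam129b was left out and a covariate separated those sets, a fit that called 5 genes, or 0.0454% of those tested. Tnnt2, the troponin subunit that anchors the complex to tropomyosin in heart and developing muscle, was the member above 0, at 43.3 ± 11.9 and 33.8 ± 2.12 FPKM (SD, n = 4), with 60.9 FPKM in siFam129b library 4. Without that library the list median was -0.32, and over the libraries left out in turn it ran from -0.58 (without siNC library 4) to -0.24 (without siNC library 1). This list overlaps sarcomere genes whose lower values in these libraries were known when it was drawn up.

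Cytoskeletal actin filament partners were spread around 0: of 30 genes 26 were tested, 13 on each side, with a median of -0.004. Dstn, destrin, which takes actin filaments apart, had all siFam129b libraries below all siNC libraries, at 113 ± 6.05 and 128 ± 3.65 FPKM (SD, n = 4; log2 difference -0.18 ± 0.08, SE; adjusted p = 0.784 in limma). Cnn2, calponin 2, which binds actin, had all siFam129b libraries above them, at 176 ± 30.7 and 150 ± 2.53 FPKM (SD, n = 4; adjusted p = 0.784 in limma). Such lack of overlap was found for 1.46% of tested genes in the lower and 1.9% in the higher direction. Myl6, a light chain of nonmuscle and smooth muscle myosin, stood at 773 ± 172 and 636 ± 36.0 FPKM (SD, n = 4), with 1027 FPKM in siFam129b library 4.

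Serum response factor, its MRTF cofactors and their cytoskeletal targets numbered 15 tested of 17, with 9 above 0 and 6 below and a median of 0.07. Examples were Ctgf, a secreted matrix protein (5.01 ± 0.996 and 6.46 ± 1.44 FPKM; SD, n = 4), Fhl2, a LIM domain cofactor (46.9 ± 5.33 and 42.5 ± 1.87 FPKM; SD, n = 4), and Vcl, vinculin of focal adhesions (119 ± 32.6 and 137 ± 7.79 FPKM; SD, n = 4, with 69.9 FPKM in siFam129b library 4). Without siNC library 1 the median was -0.01. Regulators of tropomyosin splicing, among them PTB proteins, known to repress alternative exons of tropomyosin transcripts, numbered 14 tested of 19, of which 13 lay below 0, with a median of -0.28. That value followed siFam129b library 4, which differed from libraries 1 to 3 by a median of -0.85 for the list. Without it 9 of the 14 lay below 0 and the median was -0.03. Ptbp3 stood at 31.6 FPKM on average in siFam129b libraries 1 to 3 and at 13.5 FPKM in library 4, against 35.0 ± 2.05 FPKM (SD, n = 4) with siNC. Srsf1, a splicing activator, stood at 69.3 and 44.6 FPKM against 77.2 ± 9.28 FPKM (SD, n = 4), and Mbnl3, a muscleblind protein, at 6.44 and 3.6 FPKM against 6.84 ± 1.06 FPKM (SD, n = 4).

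**Figure D5:**
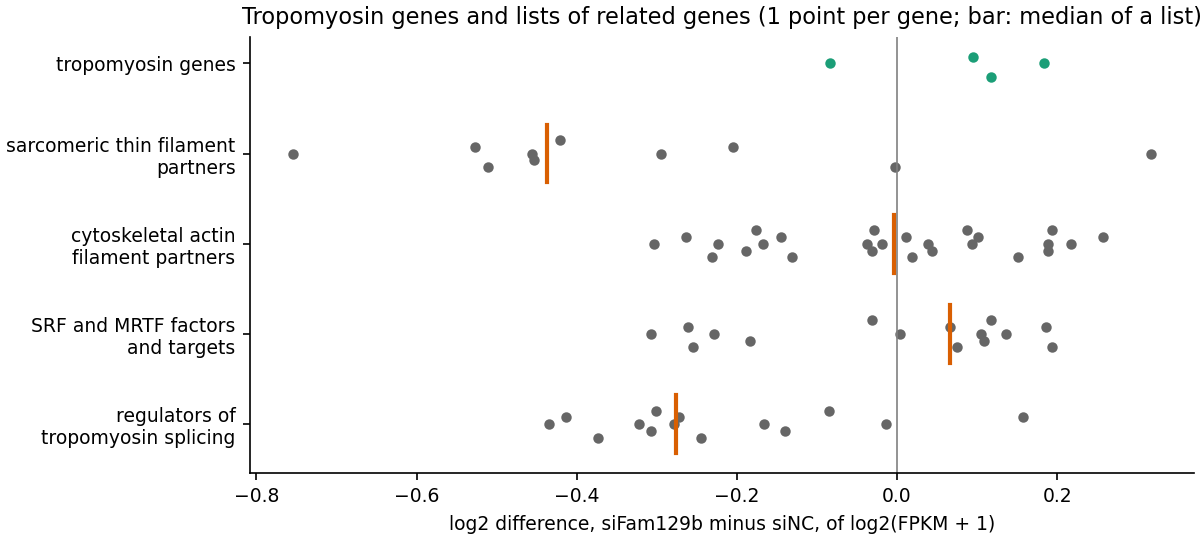
Difference of siFam129b minus siNC in log2(FPKM + 1) (horizontal axis) for the 4 tropomyosin genes and the tested members of 4 lists of related genes; bars mark list medians. Tropomyosin genes lie between -0.08 and 0.18, sarcomeric partners around a median of -0.44 and splicing regulators around -0.28, a value that is -0.03 without siFam129b library 4.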

How the data were processed

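The authors deposited FPKM values, 1 for each gene in each library. The submitters' processing notes name the build mm9; no aligner, counting tool or annotation is given in the sources used here. Columns N1 to N4 and F1 to F4 were matched to the siNC and Fam129b siRNA titles by letter and number, and the F match rests on the titles alone. For 16478 of 16479 genes with any value (all but Neat1), the 8 values were ratios of whole reads, within 0.001 of a read; the smallest such numbers served for depth, implied length and voom. No pair of libraries of a group agreed within sampling noise (lowest chi-square per gene 5.59, where sampling alone gives about 1).

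Genes averaging 1 FPKM or more were tested with limma (version 3.58.1, in R 4.3.3) on log2(FPKM + 1), allowing the variance to follow the mean, after the script was tested on simulated data. A fold change on that scale understates the change of low genes. Each gene had 19 alternative fits. The members, the lists, the named genes (the 4 members, Fam129b, 3 markers of culture state, the 3 most alike genes for each member and the 3 members of each list with the smallest p) and the alternatives were chosen with earlier results of these data known. Means over siFam129b libraries 1 to 3, the likeness without library 4, correlations within replicates 1 and 2 and 3 and 4, and that library's shift with length trends removed were added after the values were seen. Sequence windows matched by symbol for all 4 genes; no protein sequence was used here.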

Additional observations from a re-analysis of the deposited data

Results flagged for a closer look

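In 20 groups of 4 values examined for a library far from the others (the 4 genes, their sum, their shares and Fam129b, in each group), 2 groups held a value past Dixon's 95% critical value, both from 1 library; chance gives about 1 in 20. The share of Tpm4 in the summed tropomyosin FPKM was 36.1% in siFam129b library 4, below 45.4 to 47.2% in libraries 1 to 3, with a gap of 0.831 of the group's range. Fam129b was at 128 FPKM in the same library, with a gap of 0.889 of the range.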

How the results depend on the processing

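None of the 4 tropomyosin genes was called in any of the 19 alternative fits (76 values, adjusted p from 0.492 to 0.986), and 74 of the 76 kept their sign. Tpm2 turned to -0.0084 when siFam129b library 4 was left out and a covariate separated replicates 1 and 2 from 3 and 4, and Tpm3 to -0.011 after quantile normalization; the cause was not tested. With single libraries left out, the log2 difference ran from 0.03 to 0.17 for Tpm1, from 0.016 to 0.27 for Tpm2, from 0.059 to 0.13 for Tpm3, from -0.12 to -0.0084 for Tpm4 and from -0.91 to -0.73 for Fam129b. Fam129b was called with array weights (-0.89), after quantile normalization (-0.86), when library 4 of its group was left out (-0.91), and with the covariate added to that (-0.90). The count of genes called was 2, 1, 1 and 5 in those fits, against 0, and was 0 or 1 with single libraries left out. Fam129b was in each; the others were Neat1 in 2 fits and Anxa8, Acta1 and Myog in 1. The list medians without 1 library ran from -0.017 to 0.0049 for cytoskeletal partners, from -0.011 to 0.095 for serum response factor targets, from -0.58 to -0.24 for thin filament partners and from -0.41 (without siFam129b library 3) to -0.03 (without library 4) for splicing regulators. Correlations of Tpm2 with Tpm1, Tpm3 and Tpm4 turned to -0.83, -0.53 and 0.92 without siFam129b library 4, and to -0.27, -0.16 and 0.64 without it within replicates 1 and 2 and 3 and 4. Deviations of same-numbered libraries from their group means had r over genes of 0.531, 0.25, 0.0449 and 0.124, so the numbers were not taken as pairs. Not every library correlated best with its own number: siFam129b library 3 had r = 0.393 with siNC library 4. The siFam129b mean included library 4. With a replicate block 0 genes were called; Tpm1 had 0.12 ± 0.089 (SE, limma adjusted p = 0.703). Each tropomyosin value rested on at least 5307 recovered reads, and the interval of a difference on the spread of 4 libraries.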
